A study of Homo sapiens with 9 samples.

Results

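The genes of cholesterol and fatty acid synthesis were followed in MDA-MB-231 cells, an established human breast cancer line, with acquired resistance to a taxane. The set was chosen by pathway membership, with earlier results of these data known, and held 36 genes. These were 19 of the mevalonate and sterol branch, 5 that regulate the sterol response (SREBF1, SREBF2, SCAP, INSIG1 and INSIG2) and 12 of the fatty acid branch. Of the 36 genes 32 could be measured, 17, 5 and 10 of these parts, among 11963 genes in all. CYP51A1 and FADS1 lay only on probe sets that name several genes, and FDFT1 and ACSL3 had no probe set assigned to them alone, so these 4 were not analysed here. Total RNA of 9 cultures, each a separate passage, was hybridized to Affymetrix human genome arrays, 3 per group. The paclitaxel-resistant line was kept in 7 nM paclitaxel, and the docetaxel-resistant line in 2 nM docetaxel. The sensitive cells received no taxane. Verapamil, an inhibitor of drug efflux pumps, was labelled at 1 µM in all 3 groups, although the treatment text names it for the sensitive cells alone. Each resistance is represented by 1 line, so the p-values measure the spread between passages of that line, and the concentrations of both drugs differ, so a difference between the resistant lines is one of lines as they were grown.

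Cholesterol is built from acetyl-CoA through mevalonate, isoprenoid diphosphates, squalene and lanosterol. When sterols in the endoplasmic reticulum run low, the escort protein SCAP carries the SREBP transcription factors to the Golgi, where proteases release their active part. SREBP-2, encoded by SREBF2, acts mainly on sterol genes, and SREBP-1, encoded by SREBF1, has forms that act mainly on fatty acid genes. The INSIG proteins hold SCAP back when sterols are abundant. Fatty acid synthesis begins with the same acetyl-CoA, which ACLY supplies from citrate. ACACA and FASN turn it into a saturated chain that elongases and desaturases then modify. In breast cancer cells the products supply membranes and the lipid anchors of signalling proteins.

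Most of the genes that changed were higher in the resistant lines. In the paclitaxel-resistant line 15 of the 32 rose, none fell and 17 did not pass the test, where 10.8% of all genes were called higher and 10.7% lower. PMVK alone had a negative value there at an unadjusted p under 0.05. In the docetaxel-resistant line 15 rose, 2 fell (PMVK and SREBF1) and 15 did not pass, against 10.8% of all genes called higher and 10.2% lower. Of the sterol branch 10 of 17 rose in the paclitaxel-resistant and 9 in the docetaxel-resistant line. Of the fatty acid branch 4 of 10 rose in the paclitaxel-resistant and 5 in the docetaxel-resistant line. A gene was called at an adjusted p below 0.05 in limma, with Benjamini-Hochberg adjustment over all genes. Differences and their standard errors are on the scale of log2(intensity + 16) after quantile normalization, with n = 3 arrays per group, while values by array are the deposited linear intensities. Both comparisons share the same 3 sensitive arrays, so the counts of one are not independent of those of the other. Without normalization between arrays the calls over all genes of the docetaxel comparison shifted to 64.4% higher, against 51.3% with it, and 14 of the 32 rose and none fell.

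**Figure D1:**
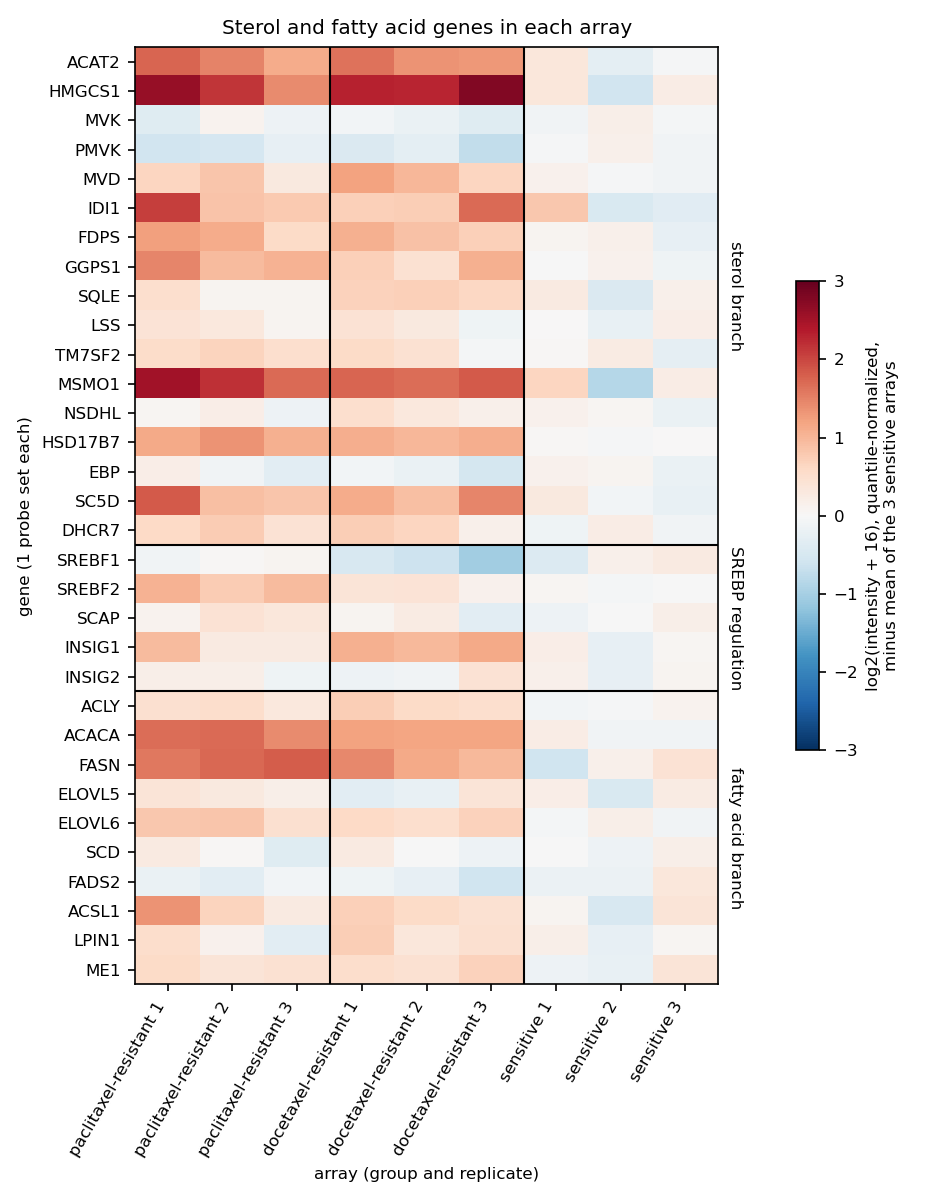
Log2(intensity + 16) of each measured gene on each of the 9 arrays, minus the mean of the 3 sensitive arrays, as colour from -3 to 3; rows are genes by branch and columns are the paclitaxel-resistant, docetaxel-resistant and sensitive arrays. Rows such as HMGCS1, MSMO1, ACAT2, ACACA and FASN are above the sensitive mean on all 6 resistant arrays, and SCD is near it on all of them.

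The arrays differed in brightness and in some quality controls. The median intensity was 37.5 to 41.8 on paclitaxel-resistant, 39.2 to 43.9 on docetaxel-resistant and 33.7 to 39.1 on sensitive arrays. Every docetaxel-resistant array was thus brighter than every sensitive one. Of human probe sets 24.0% to 27.0% were under 16, the offset used. The 3' probe set of the bioC control read 221 on sensitive replicate 3 and 41.5 to 71.95 on the other arrays. The log2 difference between the 3' and 5' probe sets of GAPDH, a sign of RNA length, was 0.094 to 0.20 on the paclitaxel-resistant arrays, 0.0067 to 0.13 on the docetaxel-resistant arrays and 0.015 to 0.039 on the sensitive arrays. The epithelial keratins were present and EPCAM was near background, while CLDN4, also of the epithelial list, averaged 216, 5.19 and 207 in paclitaxel-resistant, docetaxel-resistant and sensitive cells. The summed intensities of 5 mesenchymal markers, carried by VIM, were 5875 to 7110, 5618 to 6013 and 8625 to 10915 in the same order of groups, whereas SPARC of that list went the other way, with means of 101, 251 and 15.6. The sums of 5 hepatocyte markers, led in sensitive cells by SERPINA1, were 172 to 197, 127 to 154 and 395 to 499 in the same groups, and those of 6 adipocyte markers were 174 to 193, 164 to 210 and 214 to 268. The sums of 6 fibroblast markers were 249 to 338, 268 to 316 and 225 to 240, and of these genes PDGFRB alone was called (means of 98.8, 101 and 36.4). The adipocyte markers PLIN1 and FABP4 were near background in every group, and the fibroblast marker LUM was near 0, with means of 0.53, 0.81 and 2.36 in the same order of groups. Of the adipocyte list CIDEC was called lower in both resistant lines (means of 62.9, 59.3 and 92.2), and ADIPOQ averaged 47.5, 57.1 and 65.4, not called. FOXA1 alone of the luminal list was called, higher in both lines (means of 28.2, 22.1 and 5.74). No blood cell marker was called, though LAPTM5 averaged 1103, 1101 and 1078. CDH1 of the epithelial list averaged 62.8, 61.0 and 83.3, not called. The part of RNA length or of the marker shifts in the results was not tested. In bulk RNA of a culture fewer cells that express a gene and less RNA per cell cannot be told apart. ABCB1, the efflux pump known for taxane resistance, averaged 63.0 ± 21.3 in paclitaxel-resistant, 1025 ± 292 in docetaxel-resistant and 7.35 ± 2.65 in sensitive cells (intensity, mean ± SD, n = 3 each).

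The entry into the mevalonate pathway was higher in both resistant lines. ACAT2, the cytosolic thiolase that joins acetyl-CoA units, read 1127, 893 and 676 in paclitaxel-resistant, 964, 882 and 876 in docetaxel-resistant and 437, 210.1 and 310.4 in sensitive cells. Every resistant array lay above every sensitive one. The rise was 1.45 ± 0.20 in the paclitaxel-resistant line (adjusted p = 0.000427) and 1.42 ± 0.20 in the docetaxel-resistant line (adjusted p = 0.000503). HMGCS1, which makes the HMG-CoA that is reduced to mevalonate, had 210.0, 124 and 72.5 in paclitaxel-resistant, 147, 164 and 248 in docetaxel-resistant and 25.4, 6.66 and 23.7 in sensitive cells. The sensitive arrays lay near the offset of 16, where differences are understated. Still the rise was 2.06 ± 0.30 in the paclitaxel-resistant (adjusted p = 0.000698) and 2.46 ± 0.30 in the docetaxel-resistant line (adjusted p = 0.000229), the largest of all 32 in the docetaxel comparison. A second HMGCS1 probe set rose too, by 1.35 and 1.74.

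The kinases that follow did not share this direction. MVK, mevalonate kinase, differed by -0.14 (95% interval -0.47 to 0.20) in the paclitaxel-resistant and -0.21 (-0.55 to 0.12) in the docetaxel-resistant line and passed the test in neither. PMVK, phosphomevalonate kinase, read 136, 121 and 149.8 in paclitaxel-resistant, 134, 167 and 130.2 in docetaxel-resistant and 195, 173 and 184 in sensitive cells. It fell by 0.49 ± 0.16 in the docetaxel-resistant line (adjusted p = 0.0474), and its value in the paclitaxel-resistant line was -0.44 ± 0.16 (adjusted p = 0.0687). Its docetaxel call was lost without any single array except docetaxel-resistant replicate 2 (adjusted p up to 0.187, without docetaxel-resistant replicate 3) and in 5 further settings. MVD, the decarboxylase that makes isopentenyl diphosphate, read 147, 139 and 96.1 in paclitaxel-resistant, 196, 193 and 156 in docetaxel-resistant and 84.5, 62.1 and 74.8 in sensitive cells. Its rise was 0.95 ± 0.18 in the docetaxel-resistant line (adjusted p = 0.00335). In the paclitaxel-resistant line it rose by 0.59 ± 0.18 (adjusted p = 0.0375), a call lost without paclitaxel-resistant replicate 1 or 2, docetaxel-resistant replicate 2, or sensitive replicate 2 or 3 (adjusted p up to 0.138).

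Of the isoprenoid enzymes, FDPS and GGPS1 rose in both lines. IDI1, which isomerizes isopentenyl diphosphate, read 637, 228 and 225 in paclitaxel-resistant, 216, 248 and 513 in docetaxel-resistant and 255, 71.7 and 104 in sensitive cells. Its values varied widely within each group, and the differences of 1.24 ± 0.41 (adjusted p = 0.0515) and 1.05 ± 0.41 (adjusted p = 0.0964) were not called. Without sensitive replicate 1, the array nearest to the resistant ones, both passed, at 1.63 (adjusted p = 0.0118) and 1.44 (adjusted p = 0.0212). FDPS, farnesyl diphosphate synthase, had 3933, 3471 and 2322 in paclitaxel-resistant, 3289, 3190.1 and 2775 in docetaxel-resistant and 1907, 1657 and 1385 in sensitive cells, with all resistant arrays above the sensitive ones. It rose by 0.98 ± 0.19 (adjusted p = 0.00371) in the paclitaxel-resistant and 0.89 ± 0.19 (adjusted p = 0.00662) in the docetaxel-resistant line. GGPS1, which adds a further isoprene unit to make the anchor of small GTPases, read 240.2, 136 and 153 in paclitaxel-resistant, 123, 112 and 194 in docetaxel-resistant and 66.4, 63.3 and 63.8 in sensitive cells. The sensitive arrays lay close together and below all others. The rise was 1.15 ± 0.19 (adjusted p = 0.00123) and 0.75 ± 0.19 (adjusted p = 0.0137) in the paclitaxel- and docetaxel-resistant lines. The docetaxel call was lost without docetaxel-resistant replicate 3 (adjusted p = 0.0612) or sensitive replicate 3 (adjusted p = 0.0529), and a dimmer second probe set gave 0.41 and 0.21, not called.

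The steps from squalene to lanosterol changed less. SQLE, the epoxidase that is rate-limiting in this stretch, read 277, 165 and 173 in paclitaxel-resistant, 273, 318 and 311 in docetaxel-resistant and 226, 97.3 and 203 in sensitive cells. It rose by 0.67 ± 0.19 in the docetaxel-resistant line (adjusted p = 0.0307), and the value in the paclitaxel-resistant line was 0.22 ± 0.19 (adjusted p = 0.491). The docetaxel call was lost without any one of the docetaxel-resistant arrays or sensitive replicate 2 (0.45, adjusted p = 0.0995) and in 4 further settings, median-centred arrays among them (adjusted p = 0.0713). The other SQLE probe sets gave 0.56 and 0.33 in the docetaxel and 0.27 and -0.22 in the paclitaxel comparison, none called. LSS, lanosterol synthase, was not called, at 0.27 (95% interval -0.12 to 0.65) in the paclitaxel-resistant and 0.20 (-0.18 to 0.59) in the docetaxel-resistant line. Its dimmest probe set was called, with 0.82 and 0.62.

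Past lanosterol, the enzymes that strip and reshape the sterol rings held the largest rise of the paclitaxel comparison among the 32. MSMO1, an oxidase in the removal of methyl groups, read 2154, 1670.3 and 1134 in paclitaxel-resistant, 1175, 1229 and 1406 in docetaxel-resistant and 615, 149 and 416 in sensitive cells. Sensitive replicate 2 was the lowest, and both resistant lines lay wholly above the sensitive cells. The rise was 2.14 ± 0.32 (adjusted p = 0.000796) in the paclitaxel-resistant and 1.76 ± 0.32 (adjusted p = 0.00277) in the docetaxel-resistant line. HSD17B7, the reductase of the same demethylation cycle, had 438, 443 and 367 in paclitaxel-resistant, 374, 401 and 441 in docetaxel-resistant and 187, 135 and 187 in sensitive cells. It rose by 1.19 ± 0.12 (adjusted p = 6.68e-05) and 1.06 ± 0.12 (adjusted p = 0.000162) in the paclitaxel- and docetaxel-resistant lines, on a single probe set of a kind that may bind related transcripts. NSDHL, the dehydrogenase of the cycle, was not called, with 0.03 (95% interval -0.30 to 0.37) and 0.33 (-0.01 to 0.66).

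The last steps to cholesterol were mixed. SC5D, a desaturase, read 187, 75.5 and 74.9 in paclitaxel-resistant, 95.6, 89.7 and 153 in docetaxel-resistant and 45.3, 29.7 and 28.9 in sensitive cells, with all resistant arrays above the sensitive ones. It rose by 1.19 ± 0.26 (adjusted p = 0.00682) and 1.16 ± 0.26 (adjusted p = 0.00806) in the paclitaxel- and docetaxel-resistant lines, while a second probe set with group means under 17 gave 0.02 and 0.10. DHCR7, the reductase at the end of one route to cholesterol, had 1073, 1136 and 899 in paclitaxel-resistant, 1109.8, 1134 and 837 in docetaxel-resistant and 689, 686 and 637 in sensitive cells. It rose in the paclitaxel-resistant line by 0.60 ± 0.18 (adjusted p = 0.0326), a call lost without paclitaxel-resistant replicate 1 or 2 or sensitive replicate 1 or 3 (adjusted p up to 0.117). The docetaxel value was 0.52 ± 0.18 (adjusted p = 0.0611). TM7SF2, a sterol reductase, read 349, 327 and 294 in paclitaxel-resistant, 310.2, 329 and 238 in docetaxel-resistant and 233, 211 and 183 in sensitive cells. Its paclitaxel rise of 0.57 ± 0.19 (adjusted p = 0.0481) was lost without any one paclitaxel-resistant array, docetaxel-resistant replicate 2, or sensitive replicate 1 or 3 (adjusted p up to 0.167), and with median-centred arrays (adjusted p = 0.0533). Its docetaxel value was 0.33 (adjusted p = 0.259). EBP, a sterol isomerase, was not called, at -0.07 (95% interval -0.45 to 0.31) and -0.27 (-0.65 to 0.11), although another of its probe sets was called lower in the docetaxel-resistant line, with -0.55.

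**Figure D2:**
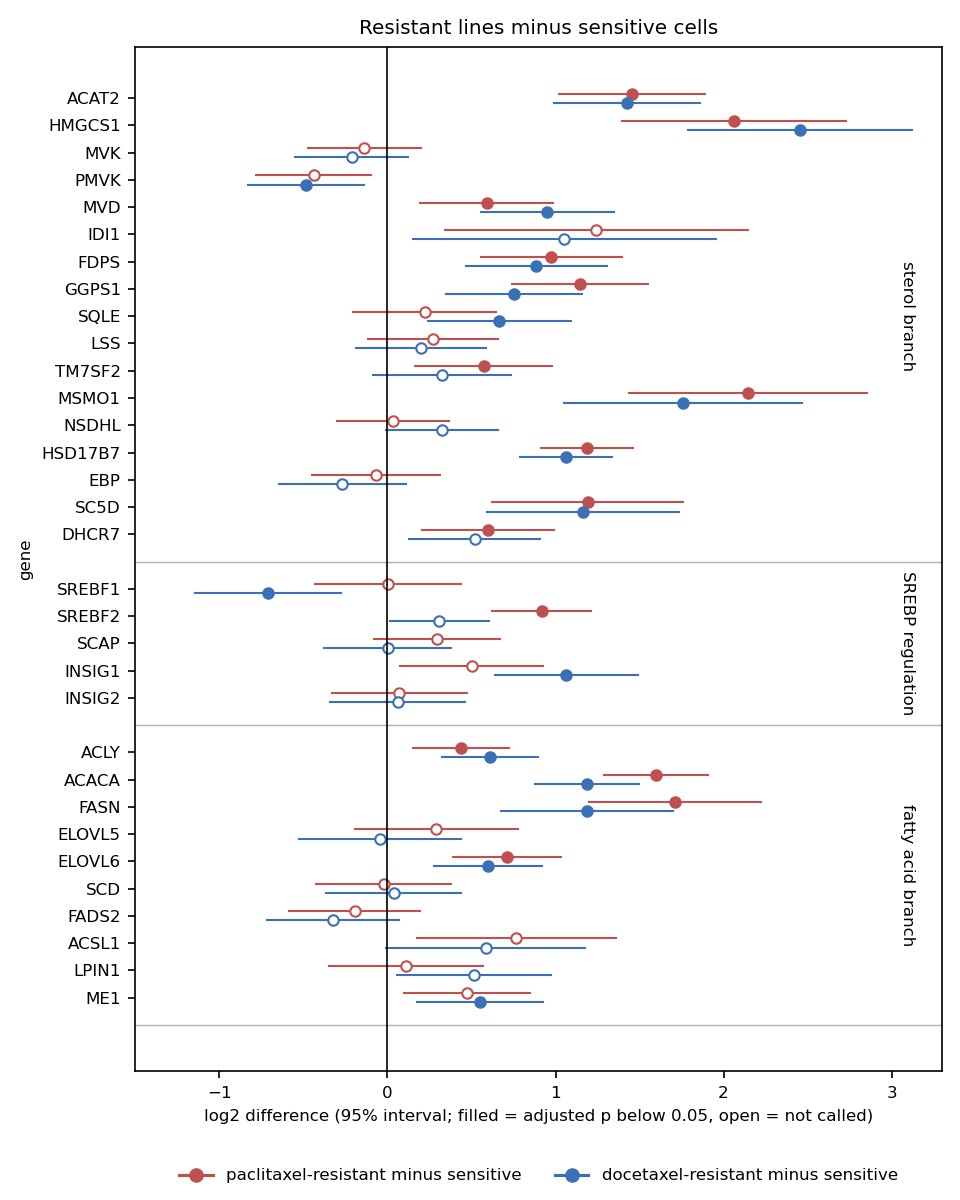
Log2 difference from sensitive cells with its 95% interval for each measured gene, the paclitaxel-resistant line above the docetaxel-resistant line in each row; filled points passed an adjusted p below 0.05. HMGCS1 (2.06 and 2.46) and MSMO1 (2.14 and 1.76) lie furthest to the right, and PMVK and SREBF1 are the filled points left of 0.

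The sequences before the starts of HMGCS1, MSMO1 and FDPS are shown because their probe sets are among those that rose in both lines. RefSeq windows of GRCh38.p14, from 250 bases before to 50 after each start, were found for 32 of the 36 genes (50 windows, since a gene can have several). The motifs TCACNCCAC (core of a sterol regulatory element), CCAAT (the NF-Y box) and TCACGTGA (an E-box) were searched on both strands; none of the 3 overlaps another in the sequences printed. CCAAT was present in 16 of 23 sterol windows (69.6%), in 2 of 6 windows of the regulators and in 9 of 21 fatty acid windows (42.9%), against 34.6% of all 35116 windows. It lay in 14 of the 16 sterol genes with a window, against 10846 of all 27305 genes with a window. Repeated matches were found in genes that rose, such as MVD and ACACA, and in genes that were not called, such as MVK, NSDHL, EBP and IDI1. The windows shown are those of HMGCS1 at chr5:43313413-43313662 on the minus strand (1 of its 2 windows), MSMO1 at chr4:165327419-165327668 and FDPS at chr1:155308616-155308865, both on the plus strand. Of the HMGCS1 windows the one with the most motif matches was picked, and the other held no match. The 250 bases before the start follow, with CCAAT, or ATTGG where it is read on the other strand, in capitals.
HMGCS1: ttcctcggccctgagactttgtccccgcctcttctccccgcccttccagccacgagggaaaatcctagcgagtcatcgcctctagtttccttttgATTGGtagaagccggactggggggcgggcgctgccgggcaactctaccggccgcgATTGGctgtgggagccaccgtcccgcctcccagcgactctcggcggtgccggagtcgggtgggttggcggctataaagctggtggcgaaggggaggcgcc
MSMO1: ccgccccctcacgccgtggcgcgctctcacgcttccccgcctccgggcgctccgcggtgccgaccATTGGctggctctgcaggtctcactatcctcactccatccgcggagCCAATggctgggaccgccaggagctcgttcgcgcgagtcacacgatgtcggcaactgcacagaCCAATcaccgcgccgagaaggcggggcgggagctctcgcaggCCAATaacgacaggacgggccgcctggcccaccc
FDPS: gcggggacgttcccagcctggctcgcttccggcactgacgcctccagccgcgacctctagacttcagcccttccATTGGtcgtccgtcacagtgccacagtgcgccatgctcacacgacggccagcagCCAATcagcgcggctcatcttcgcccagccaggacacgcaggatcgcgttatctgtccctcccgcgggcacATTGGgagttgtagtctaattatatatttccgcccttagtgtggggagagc
Neither of the other motifs matched a sterol window, which says only that these letters are not in these windows.

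The regulators did not move as a group: 1 of 5 rose in the paclitaxel-resistant line, and 1 rose and 1 fell in the docetaxel-resistant line. SREBF2, the gene of SREBP-2, read 594, 438 and 505 in paclitaxel-resistant, 336, 389 and 335 in docetaxel-resistant and 298, 210.5 and 271 in sensitive cells. The paclitaxel-resistant arrays were the highest of the 9. It rose by 0.92 ± 0.13 in the paclitaxel-resistant line (adjusted p = 0.000677), and the docetaxel value was 0.31 ± 0.13 (adjusted p = 0.136). SREBF1, the gene of SREBP-1, had 205, 193 and 207 in paclitaxel-resistant, 139, 140.1 and 112 in docetaxel-resistant and 154, 187 and 256 in sensitive cells. The docetaxel-resistant arrays were the lowest of the 9. It fell by 0.71 ± 0.20 in the docetaxel-resistant line (adjusted p = 0.0254), a call lost without docetaxel-resistant replicate 2 or 3 or sensitive replicate 2 or 3 (adjusted p up to 0.106). In the paclitaxel-resistant line its 95% interval ran from -0.43 to 0.44.

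INSIG1, itself a target of SREBP as well as its brake, read 933, 509.7 and 517 in paclitaxel-resistant, 901, 944 and 1082 in docetaxel-resistant and 559, 309 and 464 in sensitive cells. The docetaxel-resistant arrays were close together. In deposited intensity paclitaxel-resistant replicate 1 read near them and the other 2 read within the sensitive range. After normalization all 3 paclitaxel-resistant arrays lay above the sensitive ones. INSIG1 rose in the docetaxel-resistant line by 1.06 ± 0.19 (adjusted p = 0.00264), and its paclitaxel value was 0.50 ± 0.19 (adjusted p = 0.0922). Its other probe sets gave 0.48 and 0.12 in the docetaxel comparison and were not called. SCAP averaged 397 ± 20.6 in paclitaxel-resistant, 347 ± 67.6 in docetaxel-resistant and 314 ± 50.6 in sensitive cells and was not called. INSIG2, a second retention protein, was near background in all 3 groups (18.3 ± 4.24, 19.5 ± 9.03 and 16.2 ± 4.64 in paclitaxel-resistant, docetaxel-resistant and sensitive cells) and was not called.

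The 250 bases before the starts of the regulators SREBF2 and INSIG1 hold the rarer motifs. TCACNCCAC was present in 1.13% of all windows and, of the 32 genes with a window, in SREBF2 and ACSL1. In SREBF2, at chr22:41832855-41833104 on the plus strand, it began 133 bases before the start. TCACGTGA was present in 0.98% of all windows and, of these genes, in INSIG1 alone, at chr7:155297628-155297877 on the plus strand, 56 bases before the start. These motifs and the NF-Y box, which both sequences also hold, are in capitals.
SREBF2: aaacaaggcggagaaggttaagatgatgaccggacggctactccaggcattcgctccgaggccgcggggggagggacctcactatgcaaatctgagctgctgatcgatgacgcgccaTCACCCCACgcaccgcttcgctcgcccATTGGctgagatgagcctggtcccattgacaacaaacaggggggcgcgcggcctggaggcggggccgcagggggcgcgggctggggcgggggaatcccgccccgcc
INSIG1: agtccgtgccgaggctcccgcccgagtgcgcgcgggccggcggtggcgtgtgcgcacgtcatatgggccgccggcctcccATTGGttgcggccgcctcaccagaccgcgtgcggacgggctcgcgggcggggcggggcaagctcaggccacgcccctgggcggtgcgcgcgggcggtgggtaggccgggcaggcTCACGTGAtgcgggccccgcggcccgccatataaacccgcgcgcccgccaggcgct
A match is a description of the letters and not a measured binding site.

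The 3 enzymes that lead from citrate to palmitate rose in both lines. ACLY, which cleaves citrate to acetyl-CoA, read 1846, 1831 and 1567 in paclitaxel-resistant, 2051, 2041 and 1924 in docetaxel-resistant and 1311, 1127 and 1376 in sensitive cells. It rose by 0.44 ± 0.13 (adjusted p = 0.0327) in the paclitaxel-resistant and 0.61 ± 0.13 (adjusted p = 0.00644) in the docetaxel-resistant line, and all 3 of its probe sets were called higher in both. The paclitaxel call of the gene was lost without paclitaxel-resistant replicate 1 or 2, docetaxel-resistant replicate 2, or sensitive replicate 1 or 2 (adjusted p up to 0.105), and with median-centred arrays (adjusted p = 0.076). ACACA, acetyl-CoA carboxylase, which commits acetyl-CoA to fatty acids, had 486, 434 and 352 in paclitaxel-resistant, 306, 339 and 357 in docetaxel-resistant and 158, 94.3 and 125 in sensitive cells. The rise of 1.60 ± 0.14 in the paclitaxel-resistant line had the smallest adjusted p of the 32 genes (2.06e-05), and that in the docetaxel-resistant line was 1.19 ± 0.14 (adjusted p = 0.000182). A dim second ACACA probe set went the other way, with -0.70 (called lower) and -0.41 (not called).

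FASN, fatty acid synthase, read 713, 705 and 765 in paclitaxel-resistant, 566, 522 and 485 in docetaxel-resistant and 135, 194 and 299 in sensitive cells. The 3 groups did not overlap. It rose by 1.71 ± 0.23 (adjusted p = 0.000433) and 1.19 ± 0.23 (adjusted p = 0.0041) in the paclitaxel- and docetaxel-resistant lines, while a second probe set with group means of 34 to 36 gave -0.04 and -0.12. ELOVL6, which lengthens palmitate, had 109, 91.6 and 72.5 in paclitaxel-resistant, 81.1, 82.4 and 108 in docetaxel-resistant and 43.8, 47.3 and 44.4 in sensitive cells. It rose by 0.71 ± 0.15 (adjusted p = 0.00502) and 0.60 ± 0.15 (adjusted p = 0.0132), the second call being lost without docetaxel-resistant replicate 3 (adjusted p = 0.0564). ME1, the malic enzyme that supplies NADPH for the synthesis, read 143, 103 and 112 in paclitaxel-resistant, 121, 129 and 168 in docetaxel-resistant and 67.8, 54.5 and 118 in sensitive cells. Sensitive replicate 3 lay within the range of the paclitaxel-resistant arrays. ME1 rose in the docetaxel-resistant line by 0.55 ± 0.17 (adjusted p = 0.04), a call lost in 7 of the 9 fits that leave out 1 array: all but those without paclitaxel-resistant replicate 1 and sensitive replicate 3 (adjusted p up to 0.138). The docetaxel call was also lost without normalization, with a pseudocount of 1 and with the 6 arrays alone. With the mean of probe sets it was lost as well (0.41, adjusted p = 0.122). Of the 3 ME1 probe sets 2 were called higher in the docetaxel comparison, and the other gave -0.14. The paclitaxel value of ME1 was 0.47 ± 0.17 (adjusted p = 0.0716).

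**Figure D3:**
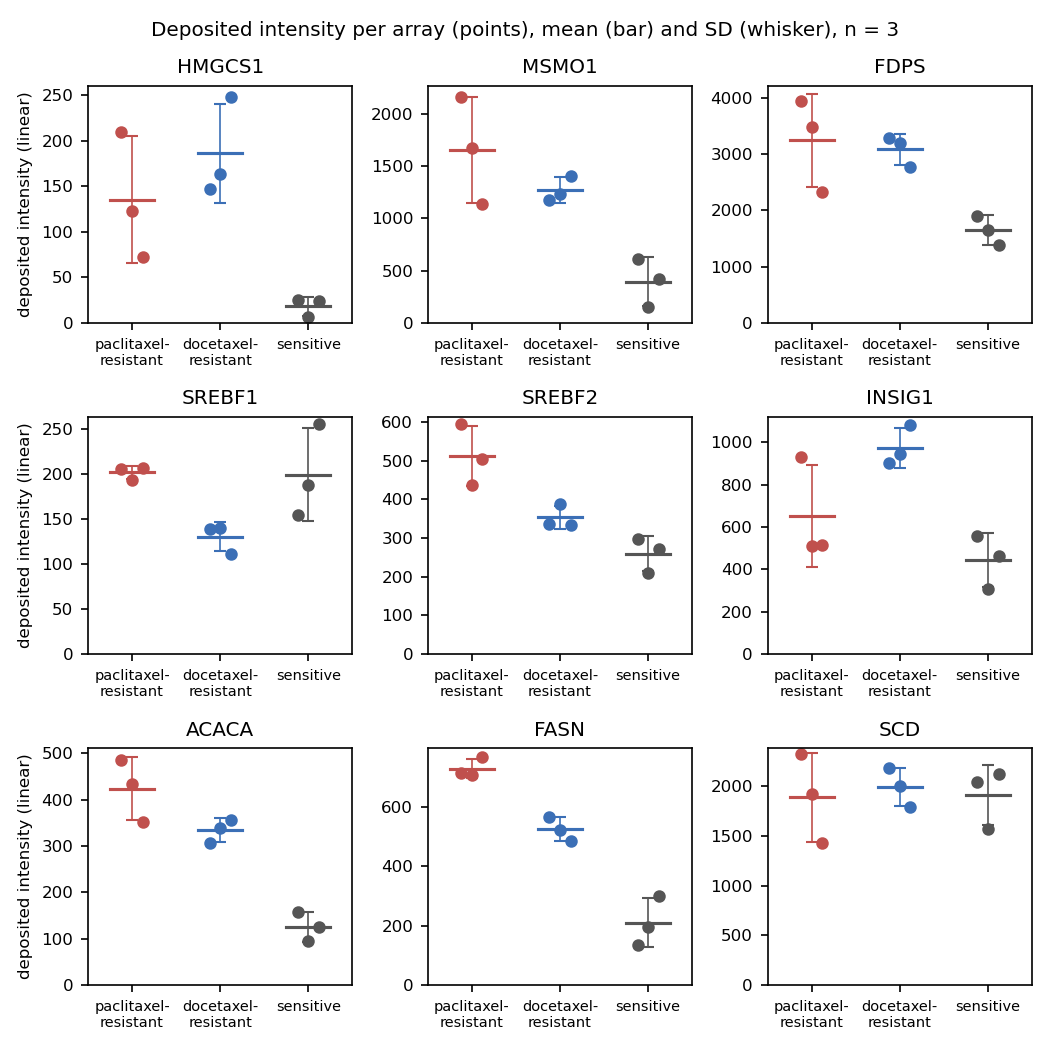
Deposited intensity, on a linear axis, of HMGCS1, MSMO1, FDPS, SREBF1, SREBF2, INSIG1, ACACA, FASN and SCD on each array. Points are arrays, bars are group means and whiskers are SD, in paclitaxel-resistant, docetaxel-resistant and sensitive cells from left to right. The sensitive points of ACACA (94.3 to 158) and FASN (135 to 299) all lie below both resistant groups.

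The desaturases, ELOVL5, ACSL1 and LPIN1 did not pass the test in either line. SCD, which introduces the first double bond, averaged 1892 ± 448 in paclitaxel-resistant, 1993 ± 194 in docetaxel-resistant and 1914 ± 299.7 in sensitive cells, with differences of -0.02 (95% interval -0.42 to 0.38) and 0.04 (-0.37 to 0.44). The 4 probe sets of SCD ran from -0.84 to 0.21 in the paclitaxel and from -0.31 to 0.26 in the docetaxel comparison, none called. FADS2, a desaturase of polyunsaturated chains, differed by -0.20 (-0.59 to 0.19) in the paclitaxel-resistant and -0.32 (-0.71 to 0.07) in the docetaxel-resistant line. ELOVL5, an elongase of such chains, differed by 0.29 (-0.19 to 0.77) and -0.05 (-0.53 to 0.44). ACSL1, which activates fatty acids with coenzyme A, averaged 167 ± 88.0 in paclitaxel-resistant, 147 ± 0.376 in docetaxel-resistant and 86.2 ± 38.0 in sensitive cells. Its differences of 0.77 ± 0.27 (adjusted p = 0.0656) and 0.58 ± 0.27 (adjusted p = 0.159) were not called, though a second probe set was called in the paclitaxel-resistant line, with 0.79 (adjusted p = 0.0107). The paclitaxel value of the gene passed in 4 other settings, with paclitaxel-resistant replicate 3 (1.02, adjusted p = 0.0263) or sensitive replicate 3 (0.96, adjusted p = 0.0456) left out among them. LPIN1, a phosphatidate phosphatase of triglyceride synthesis, was not called, at 0.11 (95% interval -0.35 to 0.57) and 0.51 (0.05 to 0.97).

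The branches had similar medians. Over the 17 sterol genes the median log2 difference was 0.60 in the paclitaxel-resistant and 0.75 in the docetaxel-resistant line. Over the 10 fatty acid genes it was 0.46 and 0.57, and over all genes -0.02 and -0.05, in the same order. Counted on the normalized values, all 3 arrays lay above all 3 sensitive arrays for 16 of the 32 genes in the paclitaxel-resistant line and below for 1, where 16.3% and 18.5% of all genes did so. In the docetaxel-resistant line 19 lay above and 2 below, against 16.3% and 20.5% of all genes. These medians and counts describe the lists and carry no test.

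Between the resistant lines SREBF2 alone was called, higher in the paclitaxel- than in the docetaxel-resistant line by 0.61 ± 0.13 (adjusted p = 0.043), where 0.978% of all genes were called higher and 0.986% lower. This call held in 5 of 19 other settings, and it was lost without any one of the 6 resistant arrays or sensitive replicate 1 or 3 (adjusted p up to 0.144). The second SREBF2 probe set differed by 0.88 (adjusted p = 0.0114). SREBF1 differed in the same direction by 0.71 ± 0.20 (adjusted p = 0.0972), not called. FASN differed by 0.52 ± 0.23 (adjusted p = 0.373) and ACACA by 0.41 ± 0.14 (adjusted p = 0.194), neither called. These 3 genes, SQLE and INSIG1 had an unadjusted p under 0.05. INSIG1, at -0.56 ± 0.19 (adjusted p = 0.198), was called only without paclitaxel-resistant replicate 1 (-0.79, adjusted p = 0.0491). HMGCS1, with -0.39 (95% interval -1.06 to 0.28), had an interval wide enough to hold a change in either direction, and MSMO1 had 0.39 ± 0.32. The median over the sterol genes was 0.07 and over the fatty acid genes 0.12.

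Several genes rest on more than 1 probe set, and these did not always go together. The 32 genes had 64 probe sets, of which 21 were called higher and 1 lower in the paclitaxel-resistant line, where 9.21% and 9.37% of all human probe sets were called. In the docetaxel-resistant line 20 were called higher and 2 lower (SREBF1 and 1 of EBP), against 9.34% and 8.32%, and 2 gene calls missed the threshold when adjusted over all probe sets: PMVK in the docetaxel (adjusted p = 0.0526) and TM7SF2 in the paclitaxel comparison (adjusted p = 0.0514). Among the 21 genes with several probe sets, all had the same sign in 12 in the paclitaxel and in 17 in the docetaxel comparison. The weaker or opposite probe sets of ACACA, FASN and SC5D were dim. With only the probe sets whose names mark them as specific to 1 gene, 21 genes remained to be measured, of which 6 were called in the paclitaxel and 8 in the docetaxel comparison.

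**Figure D4:**
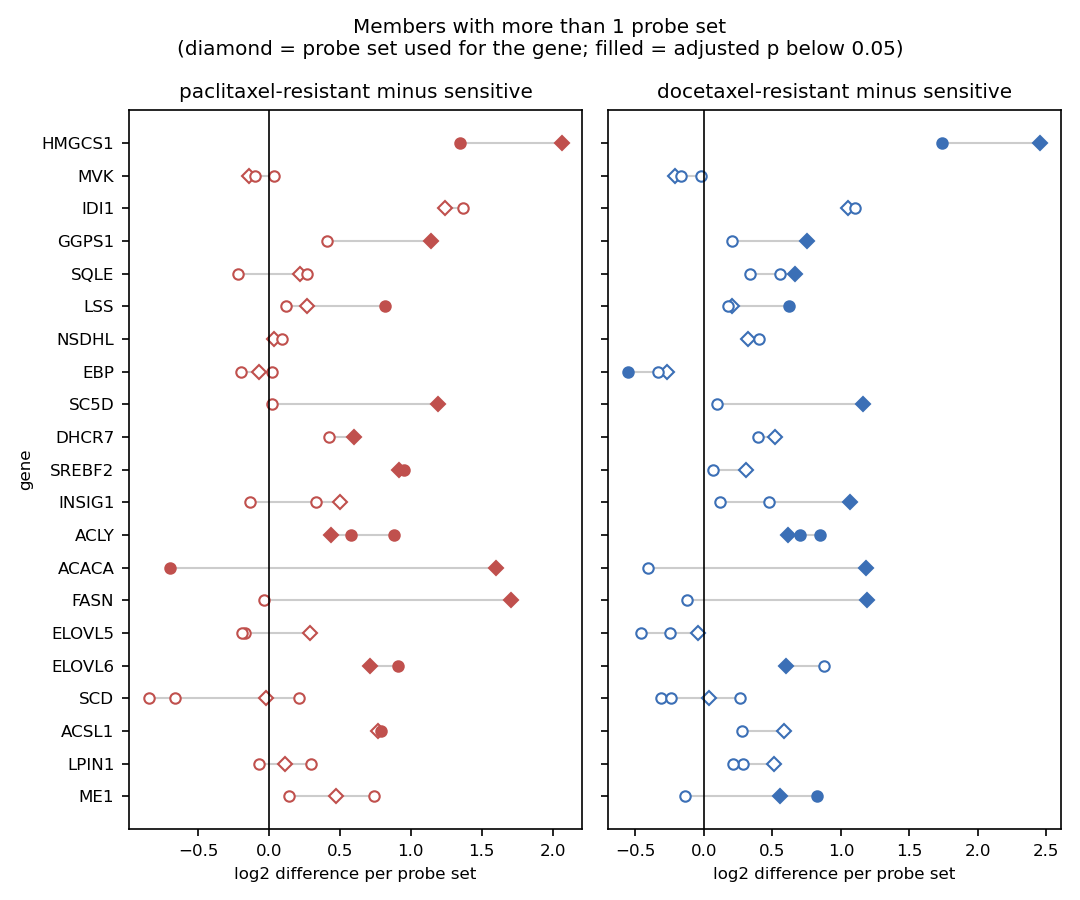
Log2 difference from sensitive cells of each probe set of the genes with several, in the paclitaxel-resistant (left) and docetaxel-resistant line (right); filled points passed an adjusted p below 0.05 over all human probe sets. The probe sets of ACACA lie on both sides of 0 and those of ACLY all to the right of it.

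Arrays of 1 group differed in the level of these genes. The mean deviation of the 17 sterol genes from their group mean was 0.21, 0.02 and -0.23 on paclitaxel-resistant replicates 1 to 3, 0.08, -0.03 and -0.05 on the docetaxel-resistant and 0.17, -0.10 and -0.07 on the sensitive arrays. Over the 10 fatty acid genes it was 0.16, 0.01 and -0.17, then 0.09, -0.06 and -0.03, and then -0.04, -0.15 and 0.20. Both branches thus stood highest on replicate 1 and lowest on replicate 3 of the paclitaxel-resistant line, while among the sensitive arrays replicate 1 was highest for the sterol and replicate 3 for the fatty acid genes. The pattern was not uniform over genes: docetaxel-resistant replicate 3 was the lowest of its group for 11 of the 17 sterol genes and the highest for 6, and sensitive replicate 2 was the lowest for 7 and the highest for 6. No other gene list was set beside these values. Paclitaxel-resistant replicate 1 also had the largest 3' to 5' difference of beta-actin, 0.17, against -0.017 or less on the other arrays, and its part was not tested.

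Of 47 measured genes of 4 neighbouring lists, 11 rose and 6 fell in the paclitaxel-resistant line, and 6 rose and 7 fell in the docetaxel-resistant line. Set against 10.8% of all genes called higher in each line and 10.7% and 10.2% called lower, most of these counts are near the background and are no result about the neighbours. Of 9 further genes of lipid synthesis and SREBP processing, 3 rose in the paclitaxel-resistant line, while 2 rose and 1 fell in the docetaxel-resistant line. MBTPS1, the first of the proteases that release SREBP, averaged 498 ± 95.2 in paclitaxel-resistant, 702 ± 14.1 in docetaxel-resistant and 232 ± 36.4 in sensitive cells. It rose by 1.01 ± 0.15 (adjusted p = 0.000776) and 1.45 ± 0.15 (adjusted p = 7.53e-05) in the paclitaxel- and docetaxel-resistant lines. IDH1, a cytosolic source of NADPH, rose by 1.32 ± 0.20 (adjusted p = 0.000727) and 1.30 ± 0.20 (adjusted p = 0.000844). SLC25A1, the mitochondrial citrate carrier that feeds ACLY, rose by 0.90 ± 0.19 in the paclitaxel-resistant line (adjusted p = 0.00589). PGD, an enzyme of the pentose phosphate pathway, had -0.57 ± 0.15 in the docetaxel-resistant line (adjusted p = 0.0225). Of 10 genes of sterol uptake, efflux and storage, 1 rose and 1 fell in the paclitaxel-resistant line, the second being NPC2, a carrier of lysosomal cholesterol, with -0.49 (adjusted p = 0.0296). In the docetaxel-resistant line LIPA, the lysosomal lipase, rose by 0.59 (adjusted p = 0.0374), and SCARB1, the HDL receptor (-0.59, adjusted p = 0.0208), and MYLIP, a ligase that degrades lipoprotein receptors (-0.46, adjusted p = 0.018), fell.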

How the data were processed

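The deposited values are intensities on a linear scale, 1 per probe set and array, made by the authors with Affymetrix Expression Console 1.1.2 and PLIER, per the submitters' processing notes; for background correction and any normalization between arrays, nothing is given in the sources used here, and no detection calls were used. All 9 columns were used. Of 22215 human probe sets 19065 named 1 gene, 1043 several and 2107 none in the platform annotation, and 19053 of the first matched the RefSeq gene table. The probe set with the highest mean stood for a gene. Values became log2(intensity + 16) and were quantile-normalized, since array medians differed by 0.27.

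In R 4.3.3, limma 3.58.1 fitted 3 group means to the 9 arrays (lmFit and eBayes, two-sided), with Benjamini-Hochberg adjustment over 11963 genes, and again over all human probe sets. The procedure was tested on simulated data. Precision is set by the number of arrays, with a median standard error of 0.16. Replicate numbers did not pair the arrays.

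Every gene of the set with a probe set of its own was named, with all 9 values where it was called against sensitive cells. Of each neighbouring list at most 4 genes were named, those with the smallest adjusted p in either comparison with sensitive cells. The genes and lists were chosen with earlier results of these data known. Probe sets named beyond the first of a gene were chosen after their values were seen. Alternatives were no or median normalization, other pseudocounts (1 and 64), a filter on low levels, only the 6 arrays compared, a trended robust fit, a replicate block, the mean of probe sets, specific probe sets alone, and each array left out.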

Additional observations from a re-analysis of the deposited data

Results flagged for a closer look

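SREBF2 was higher in the paclitaxel- than in the docetaxel-resistant line by 0.61 on the log2 scale (limma, adjusted p = 0.043), the one gene of the 32 for which the difference between the lines itself passed the test. It read 438 to 594 in the paclitaxel-resistant and 335 to 389 in the docetaxel-resistant line, without overlap. The call was lost in 14 of 19 other settings, with adjusted p from 0.0531 to 0.2 in these.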

How the results depend on the processing

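Of 32 calls against sensitive cells 19 held in each of up to 19 alternative settings and 13 were lost in at least 1, 10 of them on leaving out 1 array; none reversed. Leaving out each array in turn gave 11 to 17 called genes in the paclitaxel comparison (15 with all arrays), 12 to 16 in the docetaxel comparison (17) and 0 to 1 between the lines (1). The sterol median then ran from 0.52 to 0.74, from 0.70 to 0.89 and from -0.01 to 0.18 in these 3 comparisons, the fatty acid median from 0.39 to 0.57, from 0.42 to 0.61 and from -0.02 to 0.17, and the called probe sets from 17 to 25, from 15 to 22 and from 0 to 1. With specific probe sets alone, which leaves 21 genes, 6 and 8 were called in the paclitaxel and docetaxel comparisons, the sterol medians were 0.25 and 0.30, and the paclitaxel fatty acid median was 0.75. In the docetaxel comparison the sterol and fatty acid medians were 0.55 and 0.40 with a pseudocount of 64 and 0.52 and 0.40 with the mean of probe sets. Between the lines no gene of the set was called (0) without normalization, with median-centred arrays, a pseudocount of 1, the 6 arrays alone, the replicate block or specific probe sets alone; 1 probe set was called without normalization, with median-centred arrays, the 6 arrays alone or the block, and 0 with a pseudocount of 1. The cause of these changes was not tested.

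Over all genes, calls between the lines numbered 235, against 143 without normalization (37.1% higher, against 49.8%), 72 and 380 with pseudocounts of 1 and 64, and 139 with the replicate block. The numbers did not pair the arrays: 3 of 9 same-numbered pairs had deviations correlated over 0.1. The highest correlations between groups were of arrays with different numbers. They were 0.47 for sensitive replicate 1 with docetaxel-resistant replicate 3, and 0.44 for the latter with paclitaxel-resistant replicate 1. Sensitive replicate 2 had 0.43 with docetaxel-resistant replicate 1. What these arrays share was not tested. Under the block 15 and 17 genes were called in the paclitaxel and docetaxel comparisons; ACLY (adjusted p = 0.0593) was lost and IDI1 (0.0404) gained in the first, and PMVK (0.0702) lost and DHCR7 (0.0417) gained in the second. Signal over background limits HMGCS1 in sensitive cells and INSIG2 throughout.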

Other observations

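Of 16 measured genes of fatty acid oxidation, 6 rose and 2 fell in the paclitaxel-resistant line, and 3 rose and 2 fell in the docetaxel-resistant line, where 10.8% of all genes were called higher in each line and 10.7% and 10.2% lower. The counts of genes that fell are near that background. ACAA2, a mitochondrial thiolase, averaged 477 ± 85.2 in paclitaxel-resistant, 321 ± 12.3 in docetaxel-resistant and 147 ± 46.1 in sensitive cells (intensity, SD, n = 3 each). It rose by 1.60 ± 0.16 (limma, adjusted p = 4.5e-05) and 0.96 ± 0.16 (adjusted p = 0.00153) in the paclitaxel- and docetaxel-resistant lines. ETFA, which takes up electrons from the acyl-CoA dehydrogenases, rose by 0.87 (adjusted p = 0.00383) and 1.36 (adjusted p = 0.000247). ECHS1, the enoyl-CoA hydratase of the spiral, fell in both lines, with -0.78 (adjusted p = 0.00127) and -0.41 (adjusted p = 0.0386). HADH, the dehydrogenase that follows it, fell in both too, with -0.58 (adjusted p = 0.0246) and -0.82 (adjusted p = 0.00417).

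Of 12 genes of triglycerides and lipid droplets, 1 rose and 3 fell in the paclitaxel-resistant line, and none rose and 2 fell in the docetaxel-resistant line (LPIN2, chosen after its values were seen, was alone in being higher there at an unadjusted p under 0.05). These counts stand against the same shares over all genes, and nothing is read from them. PLIN2, the coat protein of droplets, averaged 1058 ± 170.4 in paclitaxel-resistant, 683 ± 20.1 in docetaxel-resistant and 1309.5 ± 168 in sensitive cells, and was lower in the docetaxel-resistant line with -0.96 ± 0.17 (adjusted p = 0.00206), while its paclitaxel value was -0.30 ± 0.17 (adjusted p = 0.257). PLIN3, another coat protein, had -0.48 (adjusted p = 0.0264) and -0.49 (adjusted p = 0.026), called in both. LIPE, a hormone-sensitive lipase, fell in the paclitaxel-resistant line, with -0.61 (adjusted p = 0.0108), and had -0.37 (adjusted p = 0.0974) in the docetaxel-resistant line. PNPLA2, the first lipase of stored triglyceride, rose by 1.01 ± 0.20 in the paclitaxel-resistant line (adjusted p = 0.00424).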
